A study of Oryza sativa with 17 samples.

Results

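The transcriptome of the cultivated rice Qishanzhan (QSZ, Oryza sativa ssp. indica) was compared between 14 and 12 days after imbibition (DAI) at 10 °C. The comparison took in each gene with an FPKM (fragments per kilobase of transcript, scaled to the mapped fragments of the library) of at least 0.1 in 2 or more of the 6 libraries concerned. This left 20386 of the 23223 genes in the deposited table, and 6 of the 17 libraries of the series. The groups used were QSZ at 14 DAI (replicates 1 to 3), QSZ at 12 DAI (replicates 1 to 3) and, to show where QSZ differed, the weedy rice WR04-6 at 14 and 12 DAI with 3 libraries each. The 2 QSZ libraries of 10 DAI were used for their levels and, in the fit of all 17 libraries, for the estimate of the spread. All seeds were heated in an oven before imbibition to break dormancy and were kept at 10 °C on wet filter paper, and no group at a higher temperature was analysed here. A library was made from polyadenylated RNA of whole germinating seeds, so endosperm, aleurone, embryo and any emerged shoot or root were measured together. In such bulk samples, fewer cells of a type and less RNA per cell cannot be told apart. The study described the replicates as biological, and each accession was a single line.

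A rice grain that takes up water passes from a programme of seed maturation to one of growth. Abscisic acid (ABA) and its transcription factors VP1 and ABI5 maintain the first, in which late embryogenesis abundant (LEA) proteins protect cells against drying and oleosins coat the oil bodies. Gibberellin (GA) from the embryo opens the second by inducing alpha-amylases in the aleurone and scutellum, while expansins loosen the cell walls of the growing embryo and aquaporins let water in. Low temperature delays germination.

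In QSZ, ABA-response factors, LEA proteins and oil body proteins had lower values at 14 DAI than at 12 DAI, by their median log2 fold changes. The seed storage proteins glutelin and prolamin had medians of -0.04 and 0.06. Expansins, class III peroxidases, glycolysis genes and the GA 20-oxidase gene qEPD2 had higher values. No single gene passed edgeR's test on the 6 libraries, and libraries differed widely within each time point. With edgeR's quasi-likelihood test on the 6 libraries, 0 genes were higher and 0 were lower at 14 DAI at an adjusted p below 0.05 and a fold change of at least 2 (0.0% of the 20386 genes tested in each direction). The smallest adjusted p was 0.326. At an unadjusted p below 0.05, 1168 genes were higher (5.73%) and 1104 were lower (5.42%). With no regard to the test, 2604 genes had all 3 libraries of 14 DAI above all 3 of 12 DAI in FPKM (12.8%) and 1260 had them below (6.18%). After division of FPKM by the TMM factor of each library, these numbers were 2027 (9.94%) and 1769 (8.68%). Over all genes tested, log2 fold changes had a median of 0.01, or 0.10 when libraries were scaled by their totals alone. Below, a gene or list is therefore described by its values, and an adjusted p without another name is that of edgeR over the 6 libraries.

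The count of differentially expressed genes (DEGs) depended on the tool and on the libraries that gave the estimate of the spread. DESeq2 on the same 6 libraries called 214 genes higher (1.05%) and 39 lower (0.191%) at 14 DAI. edgeR with all 17 libraries in 6 groups called 73 higher (0.358%) and 5 lower (0.0245%). Of these 78 genes (0.383%), 67 were also called by DESeq2 in the same direction. In all 78 the libraries of 14 and 12 DAI did not overlap, against 12.8% (higher) and 6.18% (lower) of all genes. The 78 were called from these same libraries, so neither result is further support. The DEG counts of DESeq2 and of the fit of all 17 libraries rested on single libraries. Without replicate 1 of 12 DAI, DESeq2 called 1250 higher and 151 lower, and the fit of all 17 libraries called 1359 and 137. Without replicate 3 of 12 DAI, the fit of all 17 called 1 higher and 0 lower.

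Total estimated counts were 55123515 to 60576136 per library at 14 DAI and 64562065 to 68909607 at 12 DAI, and 20780 to 20947 genes at 14 DAI and 19874 to 21011 at 12 DAI were above 0. About 4 estimated counts stood for 1 sequenced fragment. On PC1 of log2(FPKM + 0.1), which held 62.1% of the variance, the 14 DAI libraries lay at -5.64, -50.3 and -80.8 and the 12 DAI libraries at -26.9, 40.9 and 122.8. Replicate 1 of 12 DAI thus lay among the 14 DAI libraries, and replicate 3 of 12 DAI lay farthest from them. Across genes, Pearson's r of log2(FPKM + 0.1) was 0.947 to 0.965 between libraries of 14 DAI, 0.927 to 0.964 between those of 12 DAI and 0.877 to 0.968 between time points.

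**Figure D1:**
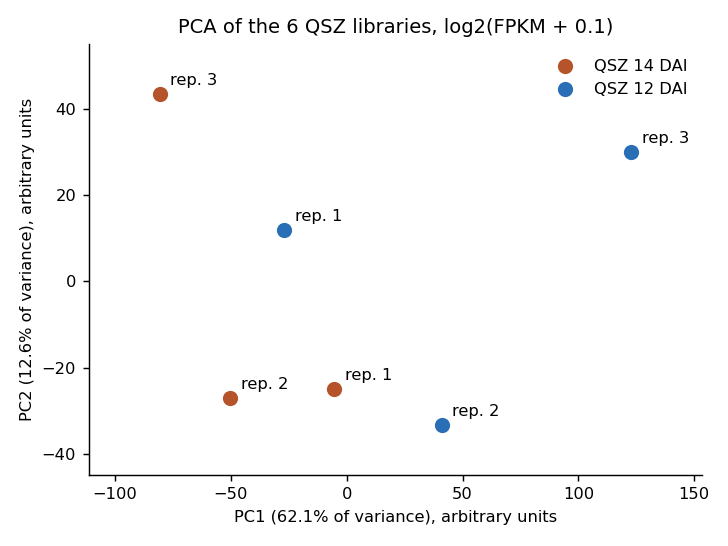
Principal components of log2(FPKM + 0.1) in the 6 QSZ libraries (x axis: PC1, 62.1% of the variance; y axis: PC2, 12.6%; arbitrary units; 1 point is 1 library). Replicate 1 of 12 DAI, at -26.9 on PC1, lies among the libraries of 14 DAI, and replicate 3 of 12 DAI, at 122.8, stands apart.

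The markers of seed parts were uneven within the time points. The 13 glutelin genes tested, which encode storage proteins of the starchy endosperm, summed to 8244, 9466 and 21764 FPKM at 14 DAI and to 21078, 7861 and 8324 FPKM at 12 DAI. The 21 prolamin genes, a second class of endosperm storage protein, summed to 34884, 39837 and 76345 FPKM at 14 DAI and 60502, 35627 and 38628 FPKM at 12 DAI. Replicate 3 of 14 DAI and replicate 1 of 12 DAI held the most of both, and the 2 time points overlapped. None of these storage protein genes had an unadjusted p below 0.05, and the median log2 fold change of the glutelins ran between -0.89 and 0.85 as single libraries were left out. RAG2, a seed allergen of the endosperm, stood at 9203, 13461 and 14432 FPKM at 14 DAI and 14252, 10870 and 9238 FPKM at 12 DAI. OSH1, a homeobox gene of the shoot meristem, had 3.54, 2.72 and 2.64 FPKM at 14 DAI against 3.46, 2.88 and 2.54 FPKM at 12 DAI. RCc3, a root gene, had 0.505, 11 and 16.9 FPKM at 14 DAI against 5.62, 0.173 and 0 FPKM at 12 DAI, so this marker was uneven within both time points. The 74 genes of photosynthesis and antenna proteins summed to 430, 595 and 405 FPKM at 14 DAI and 369, 454 and 436 FPKM at 12 DAI. The part of these differences in makeup in the results below was not tested.

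The ABA-response factors of the seed were lower at 14 DAI as a group. All 8 had a negative log2 fold change, with a median of -0.52 against 0.01 over all genes tested, and the median stayed between -0.67 and -0.39 when single libraries were left out. edgeR called none of them and DESeq2 called 1 (OsMFT2), and 4 of the 8 had an unadjusted p below 0.05 in the lower direction, against 5.42% of all genes. Summed over the list, the FPKM was 313, 292 and 238 at 14 DAI against 374, 418 and 420 at 12 DAI, and the time points did not overlap.

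OsVP1 (LOC_Os01g68370, chromosome 1, 39723155 to 39726988, minus strand in the MSU release 7 models used by the file) encodes the B3 transcription factor through which ABA keeps the maturation programme on. It had 88.4, 72.9 and 68.2 FPKM at 14 DAI against 102, 113 and 130 FPKM at 12 DAI. The time points did not overlap, and the log2 fold change was -0.68 (SE 0.20, adjusted p = 0.418). OsABI5 (LOC_Os01g64000, chromosome 1, 37174547 to 37176550, plus strand), a bZIP factor that acts with VP1, had 70.6, 69.1 and 46.9 FPKM at 14 DAI against 75.2, 86.9 and 107 FPKM at 12 DAI. Its log2 fold change was -0.63 (SE 0.23, adjusted p = 0.43). OsbZIP72, another bZIP factor that binds ABA-response elements, had 17.6, 20.7 and 13.4 FPKM at 14 DAI against 20.6, 24.8 and 23.8 FPKM at 12 DAI, with the highest library of 14 DAI just above the lowest of 12 DAI.

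OsMFT2 (LOC_Os01g02120, chromosome 1, 612564 to 615650, plus strand), of the family of MOTHER OF FT AND TFL1 proteins that act on ABA signalling in seeds, had the largest fold difference of the list. Its FPKM was 42.3, 25.5 and 26 at 14 DAI against 85.7, 67.9 and 42.3 at 12 DAI. Replicate 1 of 14 DAI and replicate 3 of 12 DAI nearly met, and the log2 fold change was -1.13 (SE 0.30, adjusted p = 0.418). DESeq2 gave OsMFT2 an adjusted p of 0.031. OsNAC52, TRAB1, OsbZIP46 and OsbZIP23, also regulators of ABA-responsive genes, had log2 fold changes of -0.34, -0.29, -0.52 and -0.24 and overlapped between time points.

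Of the enzymes that make and break down ABA, only the synthesis gene OsNCED3 was separated. It was 1 of 8 tested (12.5%), against 6.18% of all genes in the lower direction. OsNCED3 (LOC_Os03g44380, chromosome 3, 24959107 to 24961777, plus strand) encodes a 9-cis-epoxycarotenoid dioxygenase, which cleaves carotenoids in the first step committed to ABA. It had 5.22, 5.93 and 7.02 FPKM at 14 DAI against 10.9, 8.72 and 13.6 FPKM at 12 DAI, a log2 fold change of -0.97 (SE 0.22, adjusted p = 0.406). The other 7 tested enzymes of this list overlapped between time points. OsNCED5 of the same family had 12, 6.24 and 0.49 FPKM at 14 DAI against 9.39, 15.3 and 23.6 FPKM at 12 DAI. OsABA8ox1, which hydroxylates and so inactivates ABA, had 25.6, 24.2 and 41.7 FPKM at 14 DAI against 33.1, 19.7 and 25.6 FPKM at 12 DAI. The list as a whole had a median log2 fold change of 0.04.

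The protective proteins of the dry seed were lower too, most of all in replicate 3 of 14 DAI. The 18 LEA and dehydrin genes summed to 21395, 14354 and 6671 FPKM at 14 DAI and to 16488, 27968 and 27186 FPKM at 12 DAI, that is 14140 ± 7364 FPKM at 14 DAI and 23881 ± 6414 FPKM at 12 DAI (SD, n = 3 each), so the time points overlapped. Of the 18, 17 had a negative log2 fold change, 3 of them with an unadjusted p below 0.05 against 5.42% of all genes, and the median was -0.82 (-1.26 to -0.56 as single libraries were left out). In 2 of the 18 (11.1%) all libraries of 14 DAI were below those of 12 DAI, against 6.18% of all genes. Of these, LEA protein 6 (LOC_Os06g02040) had 361, 392 and 396 FPKM at 14 DAI against 415, 583 and 623 FPKM at 12 DAI. RAB21, the rice dehydrin induced by water stress and ABA, was not separated, with 4732, 3376 and 1496 FPKM at 14 DAI and 3100, 5240 and 4455 FPKM at 12 DAI. The RAB16 dehydrins are near copies of one another, so reads may be split between them.

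Emp1 (LOC_Os05g28210, chromosome 5, 16518574 to 16519496, minus strand), an embryonic abundant protein of the same protective kind, had 3130, 2306 and 943 FPKM at 14 DAI against 3709, 5339 and 8295 FPKM at 12 DAI. The time points did not overlap, and the log2 fold change was -1.55 (SE 0.55, adjusted p = 0.421, and adjusted p = 0.042 with DESeq2).

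The oil body proteins were lower in all members. The 6 oleosin and caleosin genes all had a negative log2 fold change, with a median of -0.86 (-1.13 to -0.66 as single libraries were left out), and summed to 2969, 2654 and 1443 FPKM at 14 DAI against 3381, 4445 and 5322 FPKM at 12 DAI. In 3 of the 6 the libraries did not overlap, against 6.18% of all genes in that direction. Oleosin 18 kDa (LOC_Os03g49190), a coat protein of the oil bodies in embryo and aleurone, had 738, 630 and 448 FPKM at 14 DAI against 796, 1148 and 1099 FPKM at 12 DAI, a log2 fold change of -0.84 (SE 0.28, adjusted p = 0.419).

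**Figure D2:**
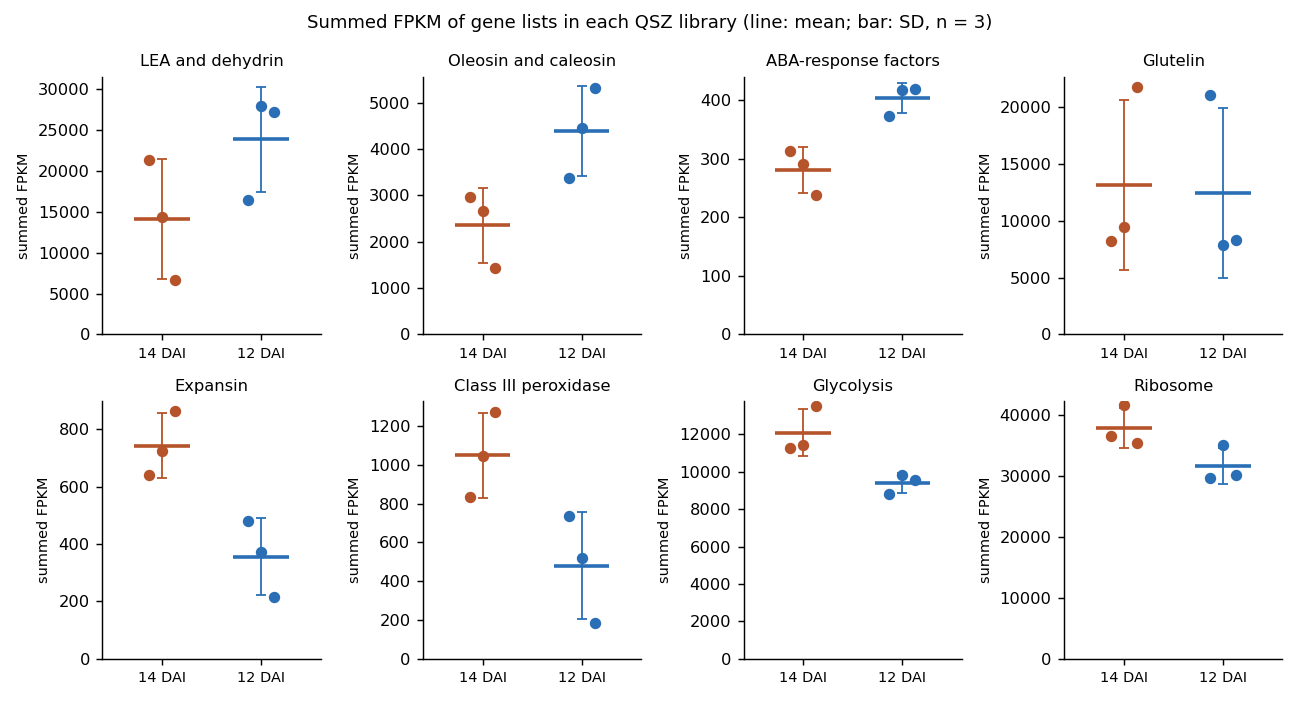
Summed FPKM of 8 gene lists in each QSZ library (y axis: summed FPKM from 0; points are libraries, lines the mean and bars the SD of 3 libraries; 14 DAI orange, 12 DAI blue). The sums of the ABA-response factors, oleosins, expansins, peroxidases, glycolysis and ribosome do not overlap between time points, whereas those of LEA proteins and glutelins do. Sums are not divided by TMM factors. Ribosome sums nearly meet, at 35438 FPKM in replicate 3 of 14 DAI and 35004 FPKM in replicate 2 of 12 DAI. The TMM factors of these libraries were 1.03 and 0.98, so the ribosome order depends on the scaling.

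The 11 GA oxidases tested summed to 73.9, 80.5 and 69.1 FPKM at 14 DAI against 35.5, 40.8 and 34 FPKM at 12 DAI, and 1 gene of GA synthesis held most of the sum at 14 DAI. qEPD2 (LOC_Os03g63970, chromosome 3, 36150664 to 36152517, plus strand) is annotated as a gibberellin 20-oxidase of type 1, which makes the precursors of active GA. It had 48.7, 48.1 and 38.3 FPKM at 14 DAI against 16.6, 17.3 and 8.87 FPKM at 12 DAI. Each library of 14 DAI was above each of 12 DAI, with means of 45.0 ± 5.86 FPKM at 14 DAI and 14.3 ± 4.69 FPKM at 12 DAI (SD, n = 3 each). The log2 fold change was 1.58 (SE 0.25, adjusted p = 0.406) and ran from 1.35 to 1.74 as single libraries were left out. DESeq2 gave an adjusted p of 1.4e-05, and edgeR with all 17 libraries an adjusted p of 0.035.

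Of the 11 GA oxidases tested, 4 had an unadjusted p below 0.05 in the higher direction, against 5.73% of all genes, and 0 in the lower. The median log2 fold change of the list was 0.86, and 0.39 without replicate 3 of 12 DAI. The other 3 of these 4 were GA 2-oxidases, which inactivate GA. OsGA2ox8 had 4.86, 5.36 and 7.79 FPKM at 14 DAI against 2.74, 2.78 and 3.53 FPKM at 12 DAI. OsGA2ox3 had 1.77, 4.35 and 7.88 FPKM at 14 DAI against 1.58, 0.197 and 0.115 FPKM at 12 DAI, and OsGA2ox9 had 0.647, 1.08 and 0.869 FPKM at 14 DAI against 0.366, 0.518 and 0.168 FPKM at 12 DAI. In these 4 of the 11 all libraries of 14 DAI were above those of 12 DAI, against 12.8% of all genes. In 1, OsGA20ox4, another enzyme of GA synthesis, they were all below, against 6.18% of all genes. It had 0.0965, 0 and 0 FPKM at 14 DAI against 0.113, 0.155 and 0.104 FPKM at 12 DAI. It passed the filter of 0.1 FPKM only through its 12 DAI libraries, so its order carries no weight. OsGA3ox2, which forms active GA in the last step, had 1.86, 3.84 and 3 FPKM at 14 DAI and 2.37, 1.86 and 0.304 FPKM at 12 DAI and overlapped.

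Of the 4 genes of GA perception and signalling, 3 overlapped between time points and 1 (25%) was separated as higher, against 12.8% of all genes. The receptor gene OsGID1 had 128, 166 and 128 FPKM at 14 DAI and 141, 154 and 144 FPKM at 12 DAI, and the gene of the DELLA repressor SLR1 had 36.9, 42.9 and 40 FPKM at 14 DAI and 39.9, 45.5 and 42 FPKM at 12 DAI. OsGAMYB, the activator of alpha-amylase genes, had 22.3, 12.3 and 13.6 FPKM at 14 DAI and 10.1, 14.6 and 15.4 FPKM at 12 DAI. OsGSR1, a small GA-regulated protein, was the exception. Its FPKM was 28.6, 34.6 and 59.1 at 14 DAI against 19.1, 0.92 and 0.417 at 12 DAI, where replicate 1 was far above the others, and its log2 fold change of 2.54 had an SE of 1.29 (adjusted p = 0.48).

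Alpha-amylases, the starch-degrading targets of GA and of sugar starvation, varied as much within a time point as between them. The 7 genes summed to 1623, 929 and 1389 FPKM at 14 DAI and 930, 893 and 406 FPKM at 12 DAI, which just overlapped. RAmy1A (LOC_Os02g52710), the main GA-induced form of the aleurone, had 556, 441 and 883 FPKM at 14 DAI against 411, 161 and 12.6 FPKM at 12 DAI. Its time points did not overlap, but the 12 DAI libraries differed among themselves by more than the lowest of 14 DAI did from the highest of 12 DAI (log2 fold change 1.64, SE 0.99, adjusted p = 0.537). RAmy3B (LOC_Os09g28420) had 66.6, 12.7 and 37.9 FPKM at 14 DAI against 10.5, 0.813 and 0.886 FPKM at 12 DAI (log2 fold change 3.23, SE 1.14, adjusted p = 0.421). RAmy3E, a form that responds to sugar starvation, had 877, 431 and 408 FPKM at 14 DAI and 468, 681 and 348 FPKM at 12 DAI and overlapped. Members of this family share sequence, so reads may be split between them.

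In the sugar-starvation pathway, which induces amylases when sugars run low, 2 of 6 genes had all libraries of 14 DAI above those of 12 DAI, against 12.8% of all genes. OsMYBS1, which binds the sugar-response box of amylase promoters, had 0.505, 1.61 and 2.03 FPKM at 14 DAI against 0.146, 0.15 and 0.192 FPKM at 12 DAI (log2 fold change 2.94, SE 0.61, adjusted p = 0.406, and 0.0026 with DESeq2). OsTPP1, a trehalose-6-phosphate phosphatase, had 1.01, 1.41 and 1.26 FPKM at 14 DAI against 0.53, 0.103 and 0.258 FPKM at 12 DAI. The kinase gene SnRK1A at the head of the pathway had 31, 33.4 and 40.8 FPKM at 14 DAI and 39.2, 36.9 and 41.7 FPKM at 12 DAI.

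**Figure D3:**
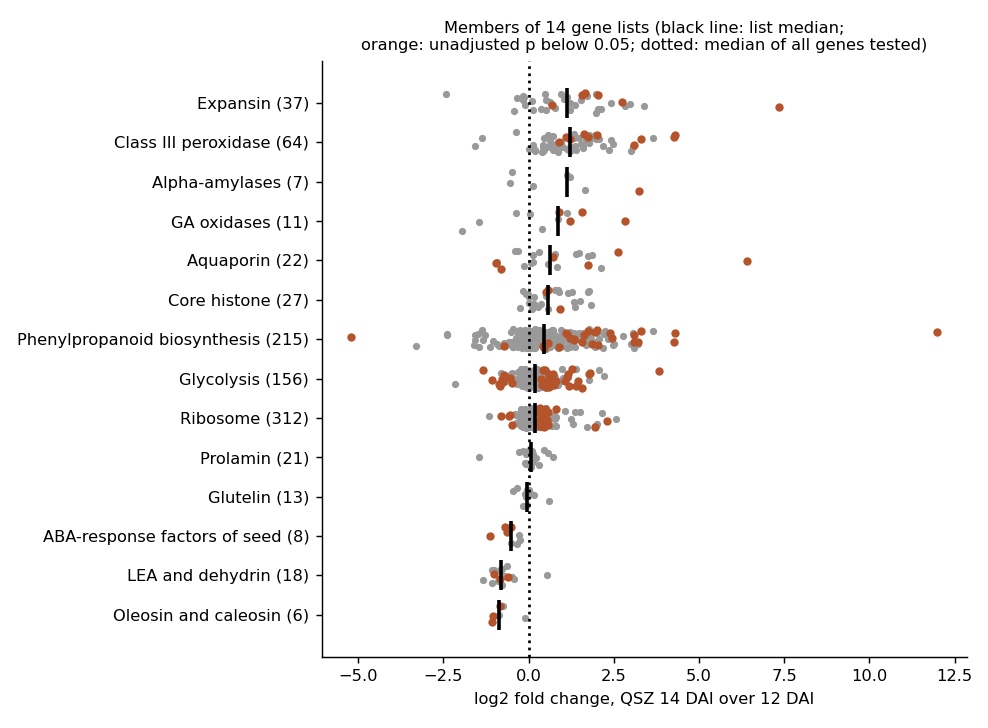
Log2 fold change of each member of 14 gene lists, 14 DAI over 12 DAI in QSZ (x axis; members tested in brackets; black line the list median; orange points have an unadjusted edgeR p below 0.05; dotted line the median of all genes tested, 0.01). List medians run between 1.20 for class III peroxidases and -0.86 for oleosins and caleosins.

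Expansins and peroxidases, which act in growing cell walls, had higher values at 14 DAI. Of the 37 expansins tested, 30 had a positive log2 fold change and 10 had all 3 libraries of 14 DAI above all of 12 DAI, against 12.8% of all genes, while 0 had them below. The median log2 fold change was 1.14 against 0.01 over all genes. It was 2.18 without replicate 1 of 12 DAI and 0.62 without replicate 3 of 12 DAI. The list summed to 639, 725 and 864 FPKM at 14 DAI against 481, 371 and 215 FPKM at 12 DAI.

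Expansin-A4 (LOC_Os05g39990, chromosome 5, 23495606 to 23497572, minus strand) had 142, 60 and 93.5 FPKM at 14 DAI against 33.7, 28 and 28.1 FPKM at 12 DAI, a log2 fold change of 1.64 (SE 0.32, adjusted p = 0.406). It was called by DESeq2 (adjusted p = 0.00031) and with all 17 libraries (adjusted p = 0.034). Expansin-A29 (LOC_Os06g50400, chromosome 6, 30520191 to 30521381, plus strand) had 24, 36.3 and 34.6 FPKM at 14 DAI against 12.4, 8.75 and 9.16 FPKM at 12 DAI. Its log2 fold change was 1.56 (SE 0.20, adjusted p = 0.406), with DESeq2 giving an adjusted p of 3.2e-07. These expansins, LEA protein 6, and the single peroxidases, reductases, aquaporins, sugar use, wax and BAG genes named in what follows were chosen after their values were seen.

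Class III peroxidases, secreted enzymes that cross-link or loosen walls, had a median log2 fold change of 1.20 over 64 genes (2.19 without replicate 1 of 12 DAI and 0.76 without replicate 3). Of these, 20 had all libraries of 14 DAI above those of 12 DAI and 0 below, against 12.8% and 6.18% of all genes. Peroxidase 17 (LOC_Os09g29490) had 20.8, 23.6 and 28.9 FPKM at 14 DAI against 14.3, 10.8 and 7.31 FPKM at 12 DAI and was called with all 17 libraries (adjusted p = 0.043). The phenylpropanoid pathway, which makes lignin precursors and whose list holds all 64 of these peroxidases, had 25 of 215 genes with an unadjusted p below 0.05 in the higher direction and 2 in the lower, against 5.73% and 5.42% of all genes, with a median of 0.45. Its cinnamoyl-CoA reductase 1 (LOC_Os02g56460), at the entry to the lignin branch, had 12.4, 8.97 and 23.2 FPKM at 14 DAI against 3.92, 2.47 and 1.46 FPKM at 12 DAI.

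Aquaporins lay on both sides. Of 22 genes, 5 had all libraries of 14 DAI above those of 12 DAI and 2 below, against 12.8% and 6.18% of all genes. The median log2 fold change was 0.63, whereas their summed FPKM was 3081, 2902 and 2144 at 14 DAI and 2516, 3386 and 3100 at 12 DAI, lower on average at 14 DAI. The plasma membrane aquaporin PIP2-1 (LOC_Os07g26690) had 345, 263 and 299 FPKM at 14 DAI against 185, 166 and 173 FPKM at 12 DAI (log2 fold change 0.71, SE 0.18, adjusted p = 0.418). PIP2-5 (LOC_Os07g26660) had 37.6, 19.9 and 37.9 FPKM at 14 DAI against 10.5, 3.09 and 1.47 FPKM at 12 DAI. TIP3-1 (LOC_Os10g35050, chromosome 10, 18701132 to 18702561, plus strand), of the tonoplast aquaporins found in the storage vacuoles of maturing seed, was the one with the highest level and ran the other way. It had 611, 569 and 668 FPKM at 14 DAI against 931, 949 and 1151 FPKM at 12 DAI, a log2 fold change of -0.81 (SE 0.22, adjusted p = 0.418, and 0.0025 with DESeq2).

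Glycolysis genes had higher summed values at 14 DAI. Of the 156 tested, 102 had a positive log2 fold change and 31 had an unadjusted p below 0.05 in the higher direction, against 5.73% of all genes, and 9 in the lower, against 5.42%. The median log2 fold change was 0.20, and the list summed to 11287, 11403 and 13514 FPKM at 14 DAI against 8803, 9830 and 9578 FPKM at 12 DAI. The 2 members with the smallest unadjusted p encode subunits of pyrophosphate-dependent phosphofructokinase (PFP), which phosphorylates fructose 6-phosphate with pyrophosphate in place of ATP. One subunit gene (LOC_Os08g25720, chromosome 8, 15658493 to 15663890, plus strand) had 374, 258 and 418 FPKM at 14 DAI against 128, 116 and 89.8 FPKM at 12 DAI, a log2 fold change of 1.57 (SE 0.26, adjusted p = 0.406, and 2.8e-07 with DESeq2). The other (LOC_Os06g13810) had 206, 214 and 314 FPKM at 14 DAI against 116, 97.5 and 96.2 FPKM at 12 DAI.

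Further genes of sugar use showed the same order. Cytosolic fructose-bisphosphate aldolase 1 (LOC_Os05g33380) had 384, 238 and 510 FPKM at 14 DAI against 171, 74.4 and 63.8 FPKM at 12 DAI. The pyrophosphate-driven proton pump of the vacuole (LOC_Os02g55890) had 296, 192 and 417 FPKM at 14 DAI against 126, 88.8 and 106 FPKM at 12 DAI. The sugar transporter SWEET15 (LOC_Os02g30910) had 40.4, 31.3 and 51.3 FPKM at 14 DAI against 16.4, 8.19 and 9.14 FPKM at 12 DAI, and was called by DESeq2 (adjusted p = 4.4e-05) and with all 17 libraries (adjusted p = 0.035). In the opposite direction, a trehalose-phosphate synthase 9 (LOC_Os02g54820) had 31, 27.3 and 35.8 FPKM at 14 DAI against 47.9, 63 and 77.6 FPKM at 12 DAI, a log2 fold change of -1.10 (SE 0.24, adjusted p = 0.049 with all 17 libraries). The fermentation genes were not separated, with ADH1, an alcohol dehydrogenase, at 853, 1085 and 1324 FPKM at 14 DAI and 714, 990 and 876 FPKM at 12 DAI.

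Ribosome and 2 wax synthesis genes also had higher values at 14 DAI, as did core histone genes by their median. Of 312 ribosome genes, 257 had a positive log2 fold change, with a median of 0.18 against 0.01 over all genes, and 106 had all libraries of 14 DAI above those of 12 DAI in FPKM, or 76 after TMM scaling, against 12.8% and 9.94% of all genes. They summed to 36479, 41553 and 35438 FPKM at 14 DAI and 29648, 35004 and 30221 FPKM at 12 DAI. Of 27 core histone genes, whose products package new DNA in dividing cells, 23 had a positive log2 fold change, 3 of them with an unadjusted p below 0.05 against 5.73% of all genes. Their median was 0.57 (0.41 to 0.69 as single libraries were left out). They summed to 557, 839 and 772 FPKM at 14 DAI and 580, 544 and 593 FPKM at 12 DAI, which overlapped. In 2 of the 27 (7.41%) all libraries of 14 DAI were above those of 12 DAI, against 12.8% of all genes. ECERIFERUM 1 (LOC_Os02g40784) and ECERIFERUM 3 (LOC_Os06g44300), named after Arabidopsis proteins that make the alkanes of leaf wax, were both called with all 17 libraries. ECERIFERUM 1 had 74.3, 25.5 and 67.2 FPKM at 14 DAI against 18.8, 15.5 and 10.1 FPKM at 12 DAI. ECERIFERUM 3 had 8.73, 9.79 and 18 FPKM at 14 DAI against 3.4, 1.77 and 0.61 FPKM at 12 DAI.

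A BAG family chaperone regulator (LOC_Os01g67950, chromosome 1, 39483755 to 39484808, plus strand) was listed at 0 in all 3 libraries of 12 DAI and had 2.18, 1.55 and 6.59 FPKM at 14 DAI. Against the 3 fragments (12 estimated counts) that a count of 0 over the group allows, which covers counting error only, it was at least 57.6-fold higher at 14 DAI. It was 1 of 7 genes called higher with all 17 libraries that were at 0 throughout 12 DAI. Such genes could pass the filter only through their 14 DAI libraries, so their direction was set in advance. In the 10 DAI libraries the BAG gene had 9.39 and 2.99 FPKM.

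**Figure D4:**
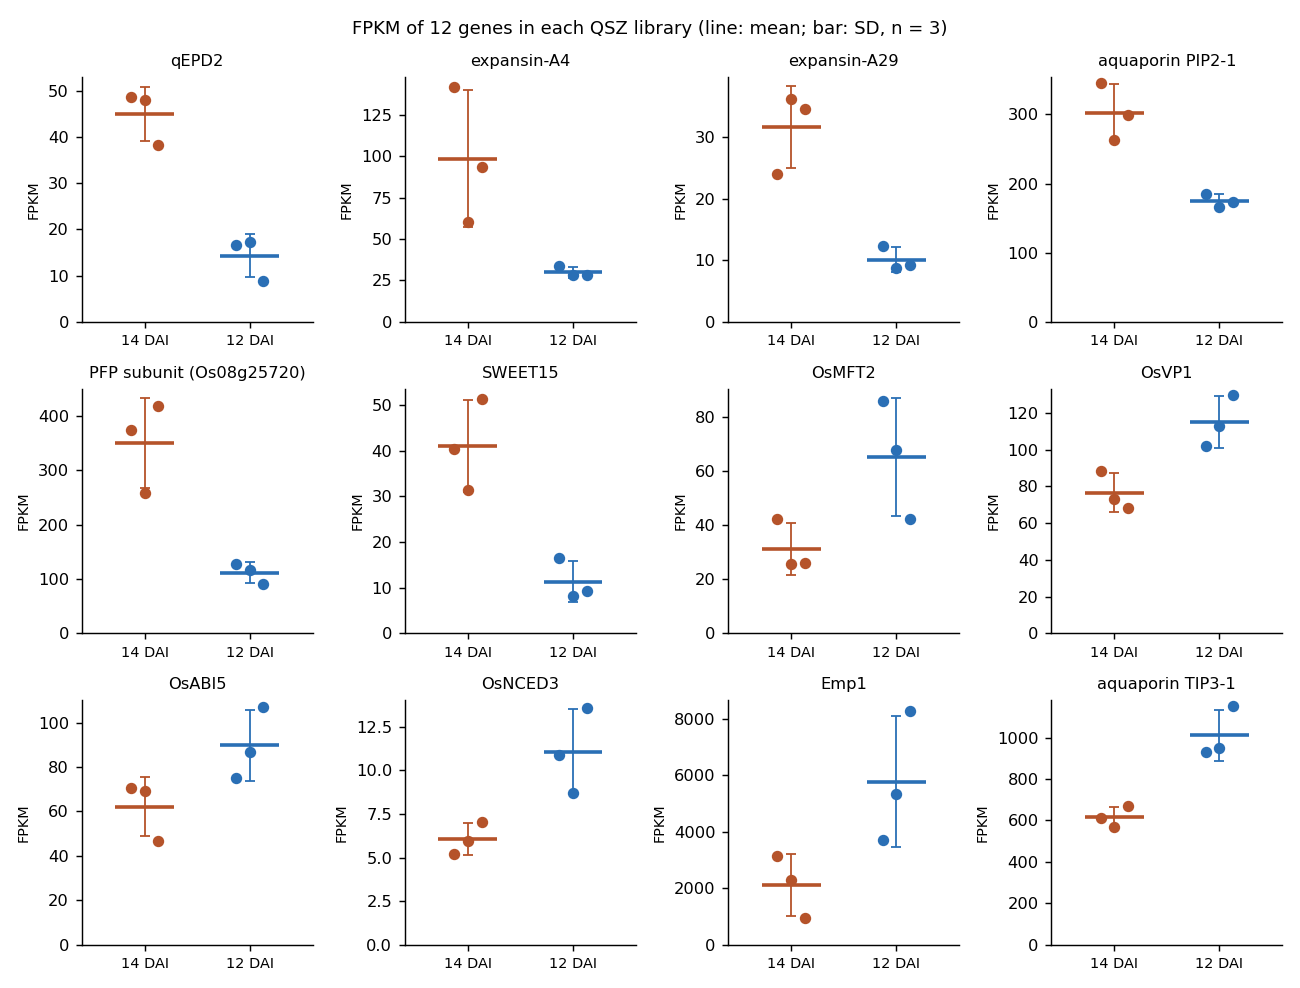
FPKM of 12 genes in each QSZ library (y axis: FPKM from 0; points are libraries, lines the mean and bars the SD of 3 libraries; 14 DAI orange, 12 DAI blue). The first 6 genes have all 3 libraries of 14 DAI above those of 12 DAI and the last 6 have them below, with OsMFT2 nearly meeting at 42.3 FPKM.

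Among the genes linked to cold and to germination at low temperature, OsLti6a, a small membrane protein induced by cold, had 6.9, 14.3 and 11.8 FPKM at 14 DAI against 5.58, 5.3 and 3.31 FPKM at 12 DAI (log2 fold change 1.13, SE 0.31, adjusted p = 0.418). OsDREB1C, a cold-induced activator that binds the DRE element, had 1.25, 0.8 and 0.752 FPKM at 14 DAI against 1.56, 2.42 and 1.36 FPKM at 12 DAI. Its relative OsDREB1A varied widely within both time points, with 5.08, 29.8 and 21.9 FPKM at 14 DAI and 38.1, 13.4 and 2.42 FPKM at 12 DAI. OsMAPK6, a mitogen-activated protein kinase, had 14, 13.9 and 17.7 FPKM at 14 DAI against 13.6, 11.1 and 11.2 FPKM at 12 DAI. The 209 genes annotated to the response to cold had a median log2 fold change of 0.02, with 28 (13.4%) at an unadjusted p below 0.05 in the higher direction and 18 (8.61%) in the lower, against 5.73% and 5.42% of all genes. Of the actin genes, one (LOC_Os03g50885) had 163, 217 and 305 FPKM at 14 DAI and 170, 134 and 135 FPKM at 12 DAI, with 1 library of 14 DAI below the highest of 12 DAI, and another (LOC_Os05g36290) had 85.5, 94.2 and 68.4 FPKM at 14 DAI against 115, 118 and 159 FPKM at 12 DAI.

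DNA replication, the proteasome, protein processing in the endoplasmic reticulum, starch and sucrose metabolism, and the responses to oxidative stress, auxin, water deprivation and ABA had median log2 fold changes between -0.13 and 0.11. Small heat shock proteins had a median of -0.16, WRKY factors of 0.14, glutathione S-transferases of 0.15 and cytochrome P450s of 0.33. Plant hormone signal transduction had 30 of 382 genes with an unadjusted p below 0.05 in the higher direction and 29 in the lower, against 5.73% and 5.42% of all genes. Oxidative phosphorylation had a median of 0.09, diterpenoid biosynthesis, which includes the GA enzymes, of -0.14, photosynthesis of 0.36 and the 3 fermentation genes of 0.47. In oxidative phosphorylation, 29 of 129 genes had all libraries of 14 DAI above those of 12 DAI and 4 below. The shares over all genes were 12.8% and 6.18%. After TMM scaling, 20 were above and 6 below, against 9.94% and 8.68% of all genes. In diterpenoid biosynthesis, 9 of 54 genes had an unadjusted p below 0.05 in the higher direction and 2 in the lower, against 5.73% and 5.42%.

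In 28 of 39 lists, some of which share genes, the mean summed FPKM of 14 DAI lay between those of the 2 QSZ libraries of 10 DAI and of 12 DAI. In the other 11, alpha-amylases, both classes of storage protein and cytochrome P450s among them, it did not. Expansins summed to 1286 and 1412 FPKM at 10 DAI, to 481, 371 and 215 FPKM at 12 DAI and to 639, 725 and 864 FPKM at 14 DAI. LEA proteins and dehydrins summed to 5939 and 7371 FPKM at 10 DAI, against the higher sums given above for 12 DAI. qEPD2 had 111 and 141 FPKM at 10 DAI, and expansin-A4 162 and 181 FPKM. Emp1 had 967 and 700 FPKM at 10 DAI and OsNCED3 1.45 and 1.78 FPKM. These 4 genes were chosen after their values were seen. In the LEA sum and in Emp1, replicate 3 of 14 DAI, with 6671 and 943 FPKM, lay between the 2 libraries of 10 DAI. The 10 DAI libraries held 33280479 and 42313486 estimated counts, fewer than the other QSZ libraries, and the part of depth in these levels was not tested.

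Whether the difference between 14 and 12 DAI was the same in QSZ and in WR04-6 was tested as an interaction over the 12 libraries of both accessions with edgeR. The interaction was positive for 28 genes (0.137% of those tested) and negative for 82 (0.402%) at an adjusted p below 0.05 and at least 2-fold. Of the 28 positive, 24 were higher at 14 DAI in QSZ and lower at 14 DAI in WR04-6 by the sign of the fold change. Only 2 of the 28 passed the test as lower at 14 DAI in WR04-6 by themselves. Of the 82 negative, 68 passed the test as higher at 14 DAI in WR04-6 by themselves, and 51 had a log2 fold change within 0.5 of 0 in QSZ. In the same fit, 150 genes rose (0.736%) and 9 fell (0.0441%) at 14 DAI in WR04-6.

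qEPD2 and expansin-A4 were among the genes whose difference in QSZ was not shared in this fit. With a replicate block, neither passed edgeR's interaction test (adjusted p = 0.105 for qEPD2 and 0.0906 for expansin-A4). qEPD2 had 70, 103 and 80.3 FPKM in WR04-6 at 14 DAI and 174, 130 and 99.2 FPKM in WR04-6 at 12 DAI, so that its log2 fold change was 1.58 in QSZ and -0.70 in WR04-6 (interaction 2.28, adjusted p = 0.029). Expansin-A4 had 189, 154 and 128 FPKM in WR04-6 at 14 DAI and 281, 261 and 250 FPKM at 12 DAI (interaction 2.42, adjusted p = 0.028). For the expansin list, the median log2 fold change was 1.14 in QSZ and -0.37 in WR04-6. In WR04-6 the median was -0.10 for class III peroxidases, -0.08 for glycolysis and 0.88 for alpha-amylases. There it was -0.34 for ABA-response factors, -0.66 for LEA proteins and dehydrins and -0.92 for oil body proteins, all negative as in QSZ. Differences between the accessions were not tested for lists. The lower levels of OsVP1 and OsABI5 at 14 DAI were not distinguished between the accessions, with interactions of -0.09 (adjusted p = 0.91) and -0.20 (adjusted p = 0.79), and OsVP1 had 48.1, 29.6 and 35.6 FPKM in WR04-6 at 14 DAI against 61.4, 45.6 and 61 FPKM at 12 DAI.

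OsMFT2 ran in opposite directions, with 9.05, 11.1 and 7.59 FPKM in WR04-6 at 14 DAI against 4.1, 3.92 and 3.76 FPKM at 12 DAI (interaction -2.34, adjusted p = 0.028). OsNCED3 was lower at 14 DAI in both accessions and by more in WR04-6, where it had 0.409, 0.502 and 0.479 FPKM at 14 DAI against 5.16, 3.63 and 4.52 FPKM at 12 DAI (interaction 2.30, adjusted p = 0.013). The interaction calls rested on few libraries per group, and without replicate 1 of QSZ 12 DAI they numbered 619 positive and 220 negative. Without replicate 3 of WR04-6 12 DAI they numbered 2 positive and 15 negative, and with the replicate block 0 and 6.

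**Figure D5:**
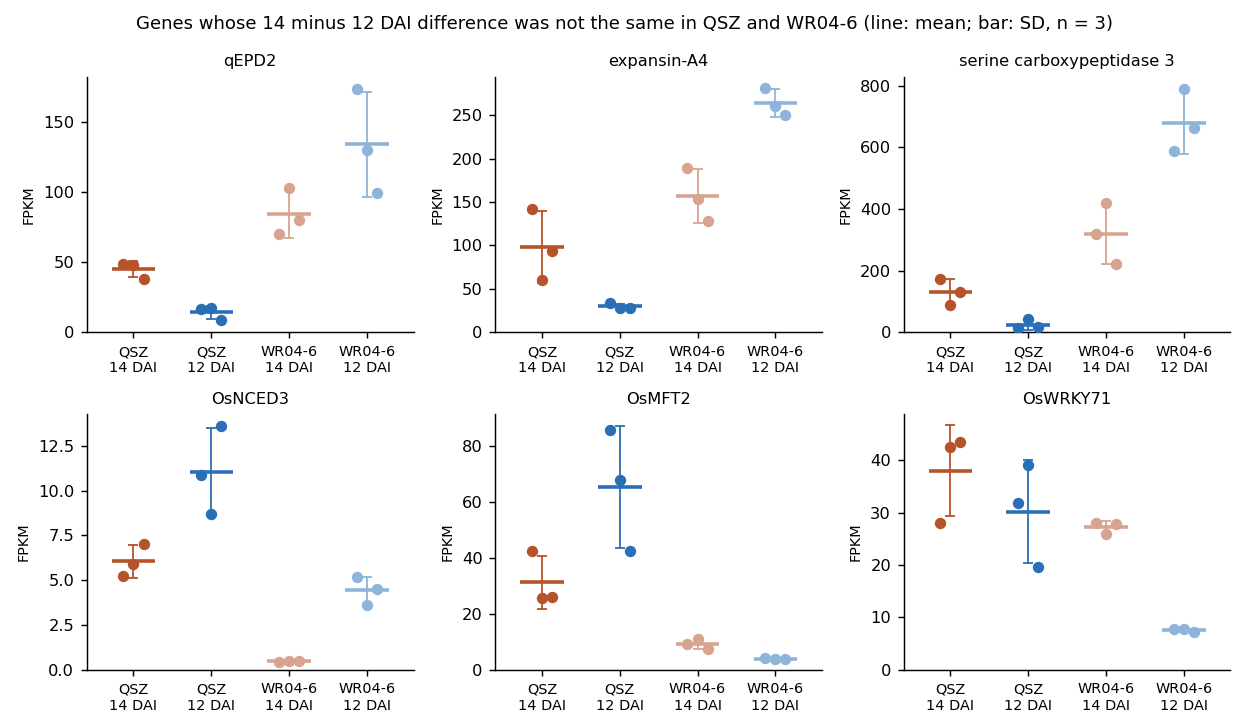
FPKM of 6 genes with an interaction adjusted p below 0.05, in QSZ and in WR04-6 at 14 and 12 DAI (y axis: FPKM from 0; points are libraries, lines the mean and bars the SD of 3 libraries). In qEPD2, expansin-A4 and serine carboxypeptidase 3 the 14 DAI libraries are above those of 12 DAI in QSZ and below them in WR04-6, with qEPD2 overlapping in WR04-6.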

How the data were processed

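RNA-seq was made by the study from germinating seeds on a strand-marking kit. Per the submitters' processing notes, the authors trimmed reads with cutadapt 1.9, aligned them with HISAT2 2.0.4 and assembled and quantified them with StringTie 1.3.4d; gene IDs and coordinates are those of the MSU release 7 models in the file. The deposited table holds FPKM and estimated counts per gene, which the authors derived from coverage. The estimated counts are whole numbers at about 4 per sequenced fragment, so counting error is understated. Dividing them by 4 left the edgeR count of DEGs over 6 libraries at 0 and was not tried for the other fits. StringTie's treatment of reads shared between near-identical genes can move values between them.

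Genes with FPKM of at least 0.1 in 2 of the 6 QSZ libraries were tested on the deposited estimated counts with edgeR 4.0.16 (TMM, quasi-likelihood test, R 4.3.3), with p-values adjusted by Benjamini-Hochberg over all 20386 genes. A DEG had an adjusted p below 0.05 and a fold change of at least 2. The interaction with WR04-6 used 12 libraries. Alternatives were DESeq2 1.42.0, limma 3.58.1 on log2(FPKM + 0.1) or log2(FPKM + 1), all 17 libraries, other filters and scalings, a replicate block and leaving out single libraries. Levels, sums and SDs are of deposited FPKM. Scripts were tested on simulated data. Lists were described by counts and medians, with no set test. The rule for named genes took DEGs, called list members, any member of lists of 12 or fewer, and the study's own genes; others were chosen after their values were seen. The members and lists were chosen with earlier results of these data known. Some genes of the lists, among them qLTG3-1, OsGID2, OsCIPK15 and OsPYL3, were not analysed here because the table's entries did not match their names. p-values measure the spread between the deposited replicates only.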

Additional observations from a re-analysis of the deposited data

Results flagged for a closer look

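For 9 genes named in the text the difference between 14 and 12 DAI differed between QSZ and WR04-6, by edgeR's interaction over 12 libraries. All 9 kept the sign of the interaction in each of the 17 settings tried, but none passed in all of them. The 9 were chosen for passing in the main fit, and the settings refit mostly the same libraries. An unchanged sign is therefore no further support.

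The interaction was 2.28 on the log2 scale for qEPD2 (adjusted p = 0.029, from 0.0186 to 0.105 over the settings), 2.42 for expansin-A4 (LOC_Os05g39990; adjusted p = 0.028, from 0.0082 to 0.0906) and 2.30 for OsNCED3 (adjusted p = 0.013, from 0.00393 to 0.119). OsNCED3 passed in 15 of the 17 settings, expansin-A4 in 9 and qEPD2 in 8. It was -2.34 for OsMFT2 (adjusted p = 0.028, from 0.00872 to 0.0930), which passed in 7. For these 4 the levels are given above.

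OsWRKY71, a WRKY factor that represses GA-induced amylase in aleurone, had an interaction of -1.58 (adjusted p = 0.041, from 0.0112 to 0.145) and passed in 4 settings. It had 28, 42.6 and 43.6 FPKM in QSZ at 14 DAI and 31.8, 39.1 and 19.7 FPKM at 12 DAI, and 28.1, 26 and 27.8 FPKM in WR04-6 at 14 DAI against 7.84, 7.69 and 7.17 FPKM at 12 DAI. The time points were separated in WR04-6 and overlapped in QSZ.

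The other 4 were higher at 14 DAI in QSZ and lower in WR04-6. Serine carboxypeptidase 3 (LOC_Os02g02320), of a family that releases amino acids from storage protein, had an interaction of 3.46 (adjusted p = 0.037, from 0.0118 to 0.149, past the threshold in 6 settings), with 172, 88.9 and 131 FPKM in QSZ at 14 DAI against 12.6, 43.2 and 17.2 FPKM at 12 DAI, and 319, 420 and 221 FPKM in WR04-6 at 14 DAI against 588, 789 and 664 FPKM at 12 DAI. An asparaginase (LOC_Os03g40070) had an interaction of 2.69 (adjusted p = 0.043, from 0.0188 to 0.121, past it in 7), with 56.5, 22.7 and 29.9 FPKM in QSZ at 14 DAI against 11.3, 8.19 and 5.25 FPKM at 12 DAI. A protein annotated as an aspartic proteinase NANA (LOC_Os05g48330) had an interaction of 1.95 (adjusted p = 0.039, from 0.00437 to 0.114, past it in 6), and the homeobox gene HOX4 (LOC_Os09g29460) one of 1.67 (adjusted p = 0.025, from 0.00512 to 0.122, past it in 9). In all 4 the libraries of 14 and 12 DAI did not overlap in either accession. These 4 were chosen by calls on the same libraries, with all 17 libraries and by the interaction. Their order is therefore no further support. The cause of these differences was not tested.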

How the results depend on the processing

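The count of DEGs was 0 higher and 0 lower in QSZ in every edgeR and limma setting on the QSZ libraries alone (scaling by totals, other filters, pseudocounts, quantile normalization, counts divided by 4, 8 libraries, and the replicate block), except without replicate 1 of 12 DAI, which gave 2 higher and 0 lower. DESeq2 gave 214 and 39, and all 17 libraries 73 and 5. Leaving out replicates 1, 2 and 3 of 14 DAI and then of 12 DAI in turn, DESeq2 gave 357, 120, 76, 1250, 126 and 175 higher and 271, 30, 18, 151, 17 and 41 lower, and all 17 libraries gave 414, 10, 2, 1359, 5 and 1 higher and 212, 0, 0, 137, 1 and 0 lower. The interaction count, 28 higher and 82 lower, was 37 and 51 with all 17 libraries, 28 and 66 by library totals and 32 and 66 with limma; it ran from 2 to 619 higher and 15 to 220 lower as single libraries were left out. The replicate numbers did not pair the libraries: same-numbered ones of 14 and 12 DAI had correlations of their deviations of -0.44, 0.26 and -0.33, and only the libraries numbered 2 correlated best with each other. With the replicate block the interaction count was 0 higher and 6 lower. Among genes listed by ID or called with all 17 libraries, none with an unadjusted p below 0.05 changed sign. That limit on p came from the same libraries, so an unchanged sign was likely beforehand and is no further support. Other named genes were not checked for a change of sign. Of 663 list medians over the settings, 21 moved by more than their spread and 52, in 18 lists, changed sign, among them those of cold and germination genes (0.26, and -0.46 without replicate 2 of 14 DAI) and glutathione S-transferases (0.15, and -0.13 by quantile normalization). The cause of these shifts was not tested. The count of 0 came with 2272 genes at an unadjusted p below 0.05 (11.1%).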
